A study of Homo sapiens with 8 samples.

Results

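Genes of cholesterol and fatty acid synthesis, with the SREBP factors and their regulators, were followed in tumours grown from MDA-MB-231 cells. The set holds 34 genes, listed by symbol: enzymes of the mevalonate and sterol pathways, SREBP factors with their regulators, and lipogenic enzymes. All 34 were present in the deposited table of 13546 human genes and were matched from Ensembl identifiers by symbol. Other genes of these pathways that belong to neither this set nor the further lists below were not analysed here. MDA-MB-231 is a long-used human cell line of triple-negative breast cancer, and nude mice, the hosts, lack mature T cells but keep their own stroma, vessels and other immune cells. Libraries came from 4 tumours of cells with intact CDK4 (CDK4WT) and 4 tumours of CDK4 knockout cells (CDK4KO). The labels give no method of disruption, number of clones or age of the mice, and do not say whether each tumour came from its own mouse.

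Libraries held 27840883 to 33617977 counts in CDK4WT and 30057019 to 33307113 in CDK4KO, so the totals of the genotypes overlapped. The CDK4 transcript averaged 113 CPM ± 4.04 with CDK4 intact and 122 CPM ± 9.66 in the knockout libraries (CPM, counts scaled to library size; SD, n = 4 each), so the level of this transcript does not check the knockout. CDK4KO replicate 1 stood apart on the second principal component, at -31.3 against -1.49 to 9.54 in the other libraries, and CDK4KO replicate 4 on the first, at 27.1 against -15.4 to 12.9. Of the markers of mesenchymal-like tumour cells listed for this line, VIM, CD44, AXL, EGFR, CAV1 and MSN were all measured, while of the 6 luminal or epithelial markers ESR1, PGR and CDH1 were not in the table. The other 3 were measured, KRT18 at 183.6 to 211.5 CPM, EPCAM at 7.25 to 11.1 CPM and GATA3 at 5.98 to 8.32 CPM over the 8 libraries. Of 10 adipocyte markers only PLIN1, CFD and LIPE were in the table, at a summed 6.41 to 10.1 CPM in CDK4WT and 5.84 to 8.34 CPM in CDK4KO. ADIPOQ, FABP4, LEP and CIDEC were among those not in it. Summed endothelial markers (5 of 6, CDH5 not in the table) stood at 246 to 285 CPM in CDK4WT and at a higher 311.5 to 372 CPM in CDK4KO, without overlap. Most of that sum came from ESAM (140 CPM and 160 CPM) and ROBO4 (110 CPM and 159 CPM). Their ranges did not overlap (edgeR adjusted p = 0.246 and 0.0749), while PECAM1, KDR and TEK had overlapping ranges. Over all genes, 3.87% had separated ranges with CDK4KO higher. The part of the endothelial markers in the results below was not tested. Skeletal muscle markers (3 of 9) summed to 9.94 to 31.9 CPM in CDK4WT and 6.58 to 14.1 CPM in CDK4KO, with overlap. Their means were 12.6 and 5.42 CPM for ACTA1, 2.57 and 1.02 CPM for DES and 4.54 and 3.63 CPM for TTN, each with overlapping ranges. Macrophage markers (5 of 9, CD68 and CD163 not in the table) summed to 18.1 to 30.2 and 20.4 to 23.7 CPM. Fibroblast markers (4 of 7, DCN, LUM and PDGFRA not in the table) summed to 775 to 1192 and 681.9 to 1178 CPM, with overlap in each. Whether reads of mouse transcripts were removed is not given in the sources used here. In bulk tumours a smaller share of cancer cells and less RNA per cancer cell cannot be told apart.

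Sterol regulatory element-binding proteins (SREBPs) are transcription factors held in the endoplasmic reticulum as precursors. When membrane sterol is low, the escort protein SCAP carries them to the Golgi, where the proteases S1P and S2P release the active factor. When sterol is high, INSIG proteins retain SCAP. SREBP2 mainly drives the genes of cholesterol synthesis, and SREBP1 those of fatty acid synthesis and desaturation.

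SCD and ACLY, both lipogenic enzymes, held the highest levels of the set. To compare genes with each other, mean CPM was divided by the annotated exon length in kilobases. SCD, the stearoyl-CoA desaturase, stood at 93.0 CPM per kb in CDK4WT and 101 in CDK4KO. ACLY, which makes cytosolic acetyl-CoA from citrate, stood at 75.5 and 79.0 CPM per kb. MSMO1, the sterol C4-methyl oxidase, followed at 39.2 and 41.1, and FASN, the fatty acid synthase, at 36.7 and 39.6. These last 2 differed by less than the SD of FASN in both genotypes, but in CDK4KO by more than the SD of MSMO1 (1.07). These 4 genes lay above 97.8%, 97.1%, 92.9% and 92.5% of the genes with an exon length. At the low end were MBTPS2, the S2P protease, at 2.27 and 2.30 CPM per kb, CYP51A1, the lanosterol demethylase, at 2.46 and 2.72, and EBP, the sterol isomerase, at 3.17 and 2.98. SREBF2, which encodes SREBP2, stood at 28.5 and 29.2 CPM per kb, and SREBF1, which encodes SREBP1, at 13.8 and 13.4.

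**Figure D1:**
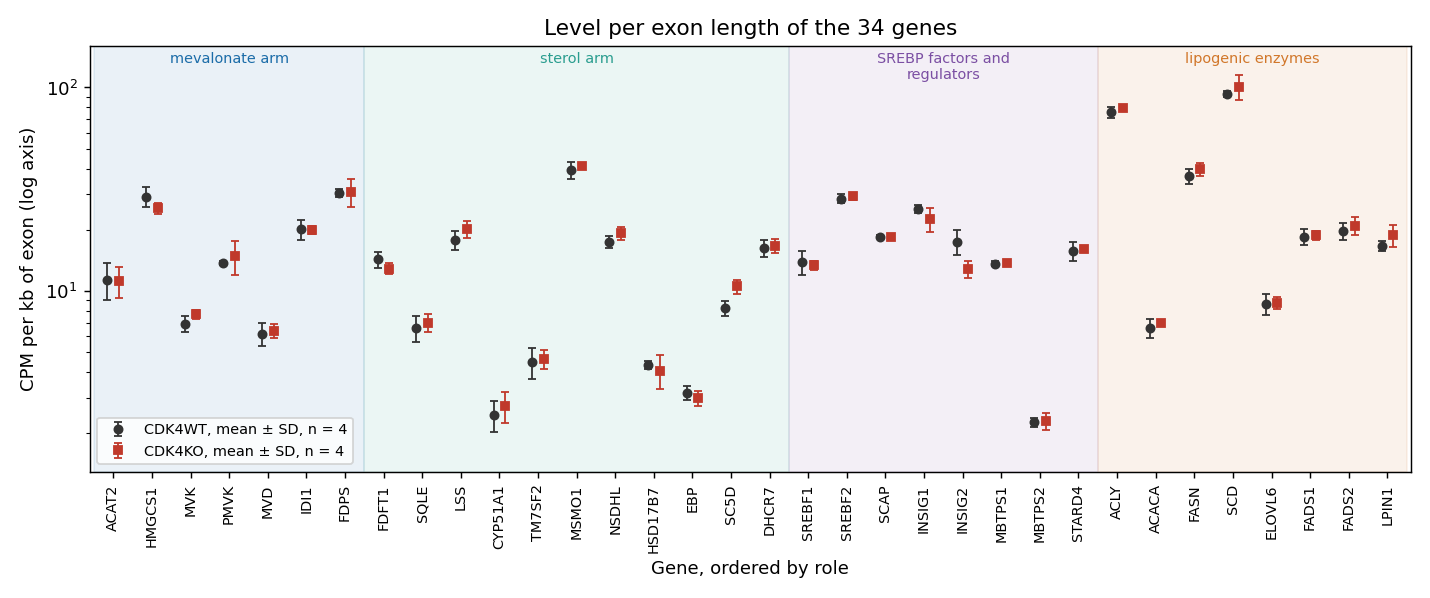
Mean CPM per kilobase of annotated exon on a log axis for each of the 34 genes, ordered by role, with SD over the 4 libraries of each genotype (circles, CDK4WT; squares, CDK4KO). SCD and ACLY are highest, MBTPS2 is lowest, and the error bars of the genotypes overlap for most genes.

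The comparison of genotypes asked whether this program differs between CDK4KO and CDK4WT tumours. Most of it did not differ detectably. By the edgeR quasi-likelihood fit, none of the 34 genes had an adjusted p below 0.05, where 0.0591% of all genes (8 of 13546) did. The log2 fold changes, CDK4KO minus CDK4WT, had a median of 0.03 over the 34 genes, against 0.004 over all genes. They were positive for 24 and negative for 10 of the 34, against 51.2% positive over all genes. They lay within 0.2 of 0 in 32 of the 34 genes, and in 79.3% of all genes. For 32 of the 34 the 95% interval of the difference stayed within 0.5 on the log2 scale either way, and for 76.7% of all genes. The exceptions to both counts were SC5D and INSIG2.

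Both exceptions were called by other tests. DESeq2 called 2 of the 34, SC5D as higher and INSIG2 as lower in CDK4KO, where it called 2.33% of all genes. Limma voom with library quality weights called the same 2, against 2.37% of all genes, and so did edgeR without CDK4KO replicate 1, against 1.35%. At an unadjusted p of 0.05 edgeR passed 3 of the 34 (SC5D, INSIG2 and HMGCS1), against 13.0% of all genes. Those 3 are also the members whose genotype ranges did not overlap: 1 of 34 higher in CDK4KO, against 3.87% of all genes, and 2 of 34 lower, against 3.81% (3 of 34 in either direction, against 7.68%). The shares of separated genes are thus close to those of the whole table.

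**Figure D2:**
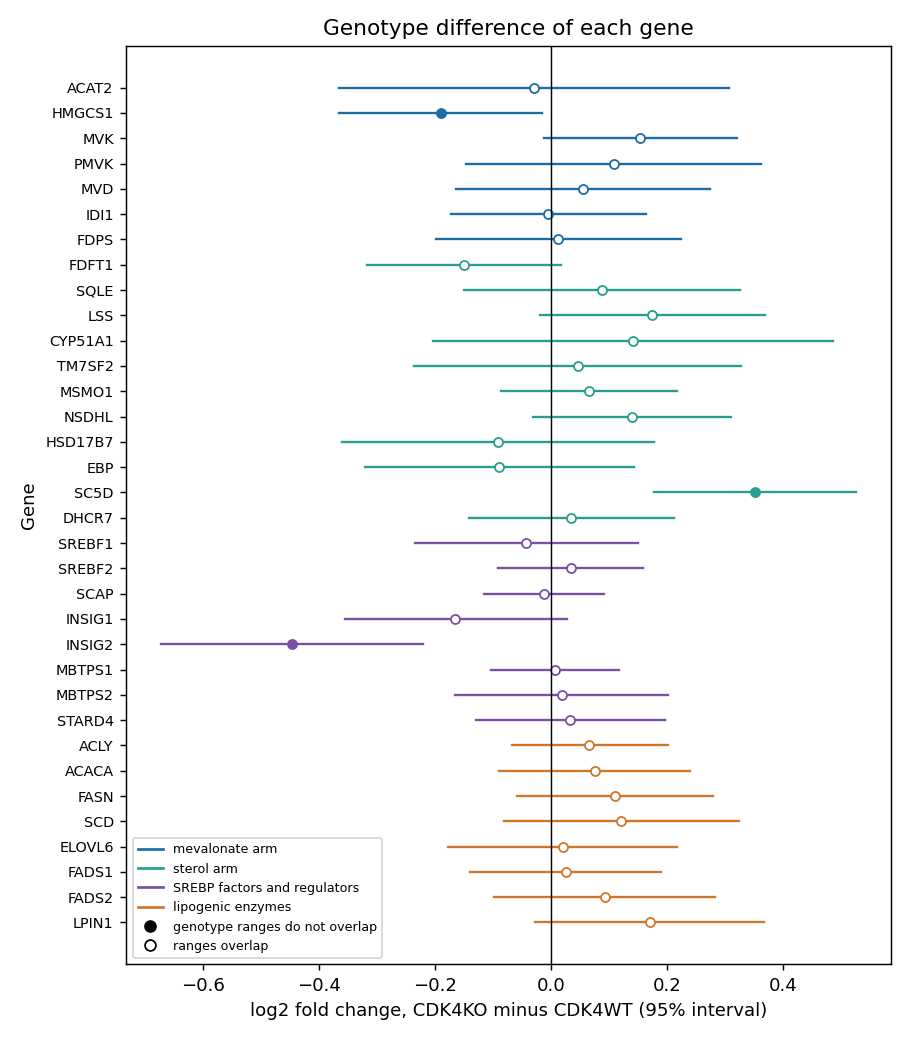
The log2 fold change of each gene, CDK4KO minus CDK4WT, with its 95% interval from the edgeR fit, coloured by role. Filled circles mark genes whose genotype ranges do not overlap: SC5D lies to the right of 0, and INSIG2 and HMGCS1 to the left.

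The mevalonate arm turns acetyl-CoA into farnesyl diphosphate. HMGCS1, the HMG-CoA synthase, had 130, 159, 129 and 128 CPM in CDK4WT replicates 1 to 4 and 126.9, 122.5, 119.5 and 110.5 CPM in CDK4KO replicates 1 to 4. All CDK4KO values lay below all CDK4WT values, but the gap between the lowest CDK4WT and the highest CDK4KO library was small and CDK4WT replicate 2 stood far above the rest. The log2 fold change was -0.19 ± 0.08 (SE; edgeR adjusted p = 0.343), and -0.11 without CDK4WT replicate 2. HMGCS1 lies on chromosome 5 from 43289395 to 43313512 (hg38, minus strand).

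The other 6 genes of the arm had overlapping ranges. ACAT2, the cytosolic acetyl-CoA acetyltransferase, ranged from 39.5 to 63.1 CPM in CDK4WT and from 41.2 to 59.9 CPM in CDK4KO, the widest relative spread of the arm. Its fold change was -0.03 ± 0.15 and turned to 0.12 without CDK4WT replicate 2. Exons of other annotated genes, TCP1 and SOD2 among them, cover 52.3% of its exon bases on the opposite strand, so its count is uncertain where counting did not use strand. MVK, the mevalonate kinase, stood at 44.9 CPM ± 4.10 and 49.95 CPM ± 2.69 (log2 fold change 0.15 ± 0.08). PMVK, the next kinase, was even in CDK4WT, at 17.2 to 18.0 CPM, while in CDK4KO replicate 4 alone reached 24.2 CPM against 16.6 to 18.0 in the others. MVD, the decarboxylase, and IDI1, the isomerase that follows, had fold changes of 0.055 ± 0.10 and -0.005 ± 0.08. FDPS, the farnesyl diphosphate synthase, had 106 to 118 CPM in CDK4WT and 96.2 to 138 CPM in CDK4KO (0.01 ± 0.10). The annotation holds 8 pseudogenes named after FDPS, which makes its count uncertain. The median of the 7 fold changes was 0.01, and 0.11 without CDK4WT replicate 2.

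The sterol arm joins 2 farnesyl units to squalene, closes the ring and trims lanosterol to cholesterol. SC5D, the sterol C5-desaturase near the end of the arm, had the largest positive difference of the set. Its libraries held 43.7, 51.3, 46.5 and 42.6 CPM in CDK4WT and 53.5, 64.6, 58.0 and 58.8 CPM in CDK4KO, replicates 1 to 4. Every CDK4KO library lay above every CDK4WT library. The means were 46.0 CPM ± 3.9 and 58.7 CPM ± 4.57 (SD, n = 4 each), a 1.28-fold difference. The log2 fold change of 0.35 ± 0.08 (SE; 95% interval 0.178 to 0.525) had an adjusted p of 0.118 with edgeR, 0.00766 with DESeq2 and 0.0205 with limma voom. It stayed between 0.30 and 0.41 when each library was left out in turn, with adjusted p from 0.0429 without CDK4KO replicate 1 to 0.347 without CDK4WT replicate 3. SC5D (ENSG00000109929) is a protein-coding gene on chromosome 11 from 121292453 to 121308694 (hg38, plus strand), and no other annotated exon overlaps its own.

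The other steps of the arm had smaller estimated differences, whose contrast with SC5D was not tested. DHCR7, the reductase that takes the product of SC5D in one branch, had 62.5, 76.8, 68.1 and 63.6 CPM in CDK4WT and 62.1, 69.1, 73.6 and 72.9 CPM in CDK4KO (0.035 ± 0.08). EBP, which acts just before SC5D, was low in all libraries, at 7.24 to 8.5 CPM in CDK4WT and 6.68 to 7.98 CPM in CDK4KO (-0.09 ± 0.10). LSS, the lanosterol synthase, had 124.9, 149.1, 116.5 and 124.8 CPM in CDK4WT and 164.4, 139.3, 132.5 and 145.2 CPM in CDK4KO, ranges that overlap through CDK4WT replicate 2 (0.17 ± 0.09, adjusted p = 0.435). FDFT1, the squalene synthase, went the other way at 74.4 CPM ± 6.90 and 67.1 CPM ± 4.22 (-0.15 ± 0.08). SQLE, the squalene epoxidase and a rate-controlling step, had 26.3, 34.3, 27.8 and 25.1 CPM against 27.1, 32.8, 32.8 and 28 CPM (0.09 ± 0.11).

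Among the remaining demethylation and reduction steps, MSMO1 and NSDHL, which remove the C4 methyl groups, had fold changes of 0.065 ± 0.07 and 0.14 ± 0.08. HSD17B7, the ketoreductase of the same step, had -0.09 ± 0.12 and has 2 pseudogenes in the annotation. TM7SF2, a sterol C14-reductase, had 0.05 ± 0.13. CYP51A1 had 0.14 ± 0.16 on 7.25 to 11 CPM. Exons of other annotated genes cover 83.2% of its exon bases, and the annotation has 3 pseudogenes of it, so its low level and its difference are uncertain. Over the arm 8 of 11 differences were positive, against 51.2% of all genes, with a median of 0.065. None passed over all genes with edgeR.

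Apart from the INSIG genes described below, the SREBP factors and their regulators had differences within 0.05 of 0 on the log2 scale. SREBF2 had 220, 227, 209 and 206 CPM in CDK4WT and 216, 214, 232 and 220 CPM in CDK4KO. Its difference of 0.03 ± 0.06 had a 95% interval from -0.09 to 0.16. SCAP was the steadiest gene of the set, with 120, 119, 116 and 121 CPM against 117, 116, 120 and 119 CPM. Its SD within genotypes was 0.025 on the log2 scale, against a median of 0.134 over all genes, and its difference was -0.01 ± 0.05. MBTPS1, the S1P protease, had 134.7 to 144.4 CPM over both genotypes (0.01 ± 0.05), and MBTPS2 had 0.02 ± 0.08. SREBF1 had 102.2, 104.7 and 103.7 CPM in CDK4WT replicates 1 to 3 and 133.7 CPM in replicate 4, against 104, 113, 111 and 102 CPM in CDK4KO. Its difference was -0.04 ± 0.09, and 0.06 without CDK4WT replicate 4. STARD4, a sterol transfer protein and SREBP2 target, stood at 89.8 CPM ± 9.50 and 91.9 CPM ± 3.23 (0.03 ± 0.07).

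INSIG2, 1 of the 2 genes whose products retain SCAP, had the largest negative difference of the set. It had 60.4, 62.3, 72.7 and 81.1 CPM in CDK4WT and 57.5, 51.2, 46.9 and 47.2 CPM in CDK4KO, replicates 1 to 4. The ranges did not overlap, and the nearest libraries, CDK4WT replicate 1 and CDK4KO replicate 1, were 60.4 and 57.5 CPM. Means were 69.2 CPM ± 9.62 and 50.7 CPM ± 4.94, so the CDK4KO mean was 0.734 of the CDK4WT mean. The log2 fold change was -0.45 ± 0.10 (95% interval -0.67 to -0.22), with an adjusted p of 0.126 with edgeR, 0.00766 with DESeq2 and 0.0271 with limma voom. When each library was left out in turn it lay between -0.51 and -0.36, with adjusted p from 0.0402 without CDK4KO replicate 1 to 0.36 without CDK4WT replicate 3. INSIG2 (ENSG00000125629) is a protein-coding gene on chromosome 2 from 118088452 to 118110997 (hg38, plus strand), with no exon shared with another annotated gene.

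INSIG1, the SREBP-induced paralogue of INSIG2, had overlapping ranges. It had 89.2, 98.3, 91.0 and 91.0 CPM in CDK4WT and 74.2, 90.5, 92.9 and 72.0 CPM in CDK4KO. CDK4KO replicates 1 and 4 were low, and replicates 2 and 3 lay among the CDK4WT values. The difference was -0.165 ± 0.09 (adjusted p = 0.453), and -0.01 without CDK4KO replicates 1 and 4, a choice made after seeing the data.

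**Figure D3:**
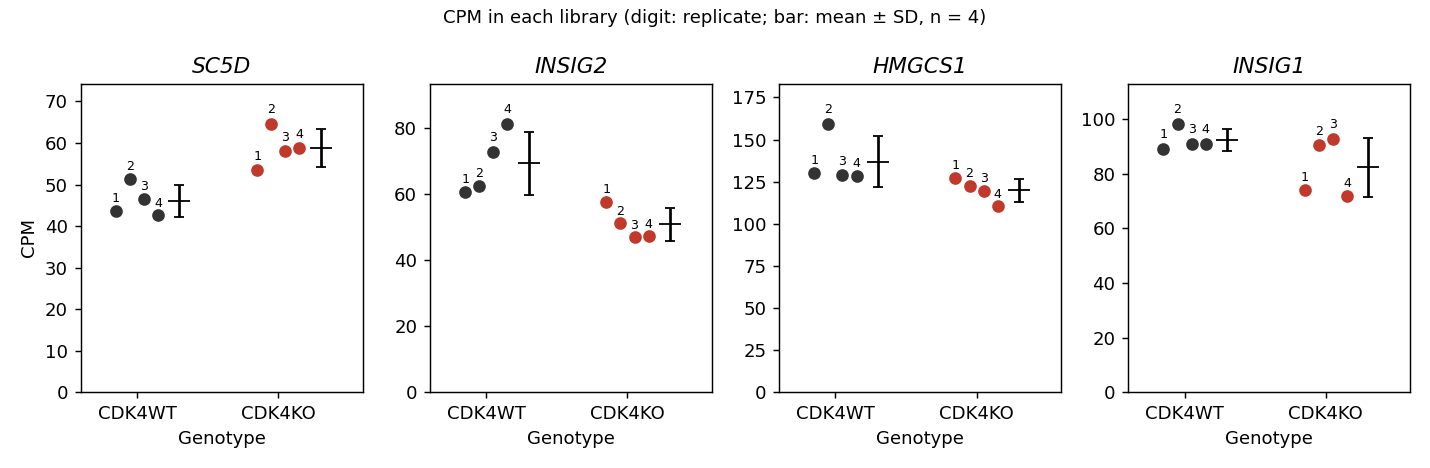
CPM of SC5D, INSIG2, HMGCS1 and INSIG1 in each library, with the replicate number beside each point and the mean ± SD of 4 libraries at the right of each genotype. All CDK4KO points are above the CDK4WT points for SC5D and below them for INSIG2 and HMGCS1, and INSIG1 overlaps.

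INSIG2 is a known target of hypoxia-inducible factors in several cell types, and its libraries were set beside a list of 15 hypoxia genes that does not include it. The list was chosen with earlier results of these data known, so its shares below are descriptions and no independent support. All 15 were measured, with negative differences in each, a median of -0.54, and none past edgeR's test over all genes (smallest adjusted p 0.0634). DESeq2 called 10 of them lower, against 2.33% of all genes called in either direction, and limma voom called 5, against 2.37%. All 15 had an unadjusted p under 0.05 with edgeR, against 13.0% of all genes. The ranges of 7 of the 15 did not overlap, with CDK4KO lower, against 3.81%. PFKFB4, PFKFB3 and CA9 had the smallest p, with differences of -0.77 ± 0.13, -0.76 ± 0.13 and -1.265 ± 0.21. Within CDK4WT the median deviation of the list from its genotype mean was -0.17, -0.14, 0.05 and 0.32 in replicates 1 to 4, and INSIG2 deviated by -0.18, -0.14, 0.08 and 0.24. Within CDK4KO the list had 0.23, 0.06, -0.11 and -0.205, and INSIG2 had 0.19, 0.02, -0.11 and -0.10. Both were highest in replicate 4 of CDK4WT and replicate 1 of CDK4KO. These libraries also held the highest value of their genotype most often over all genes, in 32.7% and 30.1% of them. Both were lowest in replicate 1 of CDK4WT, but in CDK4KO the list was lowest in replicate 4 and INSIG2 in replicate 3. The part of the hypoxia genes' difference in that of INSIG2 was not tested.

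Promoter sequence is shown for 4 genes described above, to place the letters of known control elements. RefSeq promoters (GRCh38.p14) were found for 30 of the 34 genes, in 42 entries, and ACAT2, FASN, FDFT1 and SQLE had no entry. All stretches lie on the plus strand and come from the first entry of the gene. For INSIG2 and SREBF2 the stretch runs from 250 bases before the RefSeq start up to the first annotated 5′ UTR base, which is left out. For SC5D and INSIG1, whose elements lie in the 5′ UTR exon of a longer GENCODE transcript, only 30 bases around the element are printed. Capitals mark the hypoxia element ACGTG in INSIG2 (on the reverse strand, 95 bases before the start), the NF-Y box CCAAT in SC5D (on the reverse strand, 56 bases before), the sterol regulatory element TCACNCCAC in SREBF2 (133 bases before) and the palindromic E-box TCACGTGA in INSIG1 (56 bases before).
INSIG2, chr2:118088221-118088451: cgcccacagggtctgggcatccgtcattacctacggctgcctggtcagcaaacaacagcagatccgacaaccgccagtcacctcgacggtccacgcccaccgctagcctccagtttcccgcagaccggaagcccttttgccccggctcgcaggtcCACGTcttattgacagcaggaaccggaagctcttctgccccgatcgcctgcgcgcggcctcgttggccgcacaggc
SC5D, chr11:121292703-121292732: cgccggtcgctgATTGGctggccgctccag
SREBF2, chr22:41832855-41833078: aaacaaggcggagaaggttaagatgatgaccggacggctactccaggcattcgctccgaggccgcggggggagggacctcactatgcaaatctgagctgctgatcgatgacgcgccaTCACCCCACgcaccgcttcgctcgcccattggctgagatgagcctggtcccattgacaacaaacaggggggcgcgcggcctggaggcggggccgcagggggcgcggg
INSIG1, chr7:155297811-155297840: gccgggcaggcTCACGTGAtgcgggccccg

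Each motif was searched on both strands over 250 bases before and 50 after the start. The NF-Y box, bound by a factor that works beside SREBPs, was found in 24 of 42 member entries (57.1%), against 34.6% of 35116 entries in the table. The sterol regulatory element was found in SREBF2 alone, 1 of 42 entries (2.38%) against 1.13%, and without its first base, CACNCCAC, a search added after the data were seen, in 7 entries (16.7%) against 5.87%. The E-box was found in INSIG1 alone (2.38% against 0.98%). The hypoxia element, whose letters lie inside that E-box, was found in 11 entries (26.2%) against 21.4%, among them both entries of INSIG2 and of SC5D. Both entries overlap in each of these genes, so a site can be counted more than once. By gene, the hypoxia element was found in 9 of 30 member genes, against 24.9% of all genes with an entry. The NF-Y box was found in 20 of 30, against 39.7%, and CACNCCAC in 6, against 7.05%. These matches are descriptions of letters and not of bound sites.

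All 8 lipogenic enzymes had positive differences, against 51.2% of all genes, and none passed edgeR's test. All 8 also had their highest CDK4WT value in replicate 2, so their signs are not separate observations. The signs of FADS1 and ELOVL6 turned when CDK4WT replicate 4 was left out, to -0.04 and -0.05. ELOVL6 also turned without CDK4KO replicate 2 (-0.03), and FADS1 without CDK4KO replicate 1 (-0.002) and with limma voom (-0.02). With all libraries in edgeR, the 8 fold changes ran from 0.02 to 0.17 with a median of 0.08, and all 8 genotype ranges overlapped. FASN had 324, 389, 326 and 335 CPM in CDK4WT and 347, 362, 407 and 366 CPM in CDK4KO (0.11 ± 0.08, adjusted p = 0.582). CDK4WT replicate 2 alone lay among the CDK4KO values. SCD had 487, 518, 481 and 508 CPM in CDK4WT and 461, 540, 645 and 523 CPM in CDK4KO (0.12 ± 0.09), where CDK4KO replicate 1 was the lowest library of all and replicate 3 the highest. LPIN1, a phosphatidate phosphatase that is also a coactivator of fat-burning genes, had 202, 210, 199 and 182 CPM against 213, 250, 241 and 188 CPM. Its difference of 0.17 ± 0.09 (adjusted p = 0.453) became 0.31 without CDK4KO replicates 1 and 4 (edgeR adjusted p = 0.0405). That choice of libraries was made after seeing the data, calls 3.30% of all genes, and calls 2 of the 34, SC5D (adjusted p = 0.0307) and LPIN1. INSIG2 had -0.49 in the same refit, with an adjusted p of 0.0565.

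ACLY stood at 394 CPM ± 25.3 and 412 CPM ± 7.88 (0.07 ± 0.06), while ACACA, the acetyl-CoA carboxylase that commits carbon to fatty acids, stood at 85.7 CPM ± 8.74 and 90.3 CPM ± 3.10 (0.075 ± 0.07). ELOVL6, which lengthens palmitate, had 0.02 ± 0.09. FADS1 and FADS2, the desaturases of polyunsaturated fatty acids, had 0.025 ± 0.07 and 0.09 ± 0.09, and 5.57% of the exon bases of FADS1 lie in exons of other genes, FADS2 among them. FADS2 and SCD have 1 named pseudogene each in the annotation.

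1 CDK4WT tumour had high levels of nearly all the enzymes. CDK4WT replicate 2 was above its genotype mean in 17 of the 18 enzymes of the mevalonate and sterol arms, with a median deviation of 0.185 on the log2 scale. It held the highest CDK4WT value in 14 of these 18 and in all 8 lipogenic enzymes, against 24.9% of all genes. Its deviations were 0.39 for ACAT2, 0.28 for SQLE, 0.23 for HMGCS1, 0.22 for LSS, 0.21 for IDI1 and 0.18 for FASN. TM7SF2, at -0.125, was the one enzyme below the mean there, lipogenic enzymes included. That library also had the largest total, 33617977 counts, and the part of that total in these deviations was not tested.

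Among the regulators 5 of 8 were above the mean in that library, with a median deviation of 0.008. SCAP, MBTPS1 and MBTPS2 deviated by 0.001, -0.001 and 0.014 in CDK4WT replicate 2, SREBF2 by 0.08, SREBF1 by -0.075 and INSIG2 by -0.14. The SREBP targets INSIG1 and STARD4 deviated by 0.09 and 0.21. CDK4WT replicate 4 held the lowest CDK4WT value in 6 of 8 lipogenic enzymes (against 31.1% of all genes), led by ELOVL6 at -0.23 and ACACA at -0.22. It held the highest CDK4WT value in 4 of 8 regulators (against 32.7% of all genes), namely SREBF1, INSIG2, SCAP and MBTPS2.

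**Figure D4:**
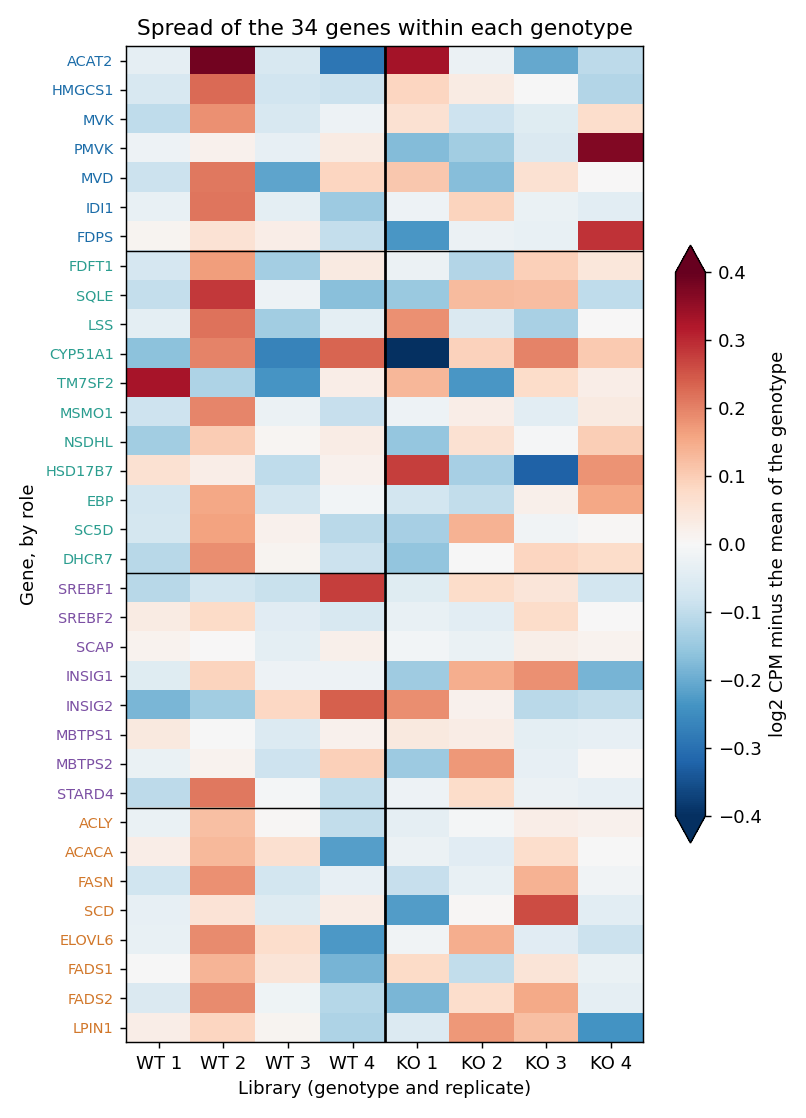
Log2 CPM of each gene minus the mean of its own genotype, by library, with red above and blue below the mean; the vertical line separates the genotypes and horizontal lines separate the roles. CDK4WT replicate 2 is red through nearly all enzymes, while the rows of SCAP and MBTPS1 are pale throughout.

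No CDK4KO library led all the enzymes. Replicate 3 held the highest value in 5 of 8 lipogenic enzymes (against 21.0% of all genes), with SCD at 0.26 and FASN at 0.14, and was below the mean in 6 of 7 mevalonate genes. Replicate 1, a library that stood apart over all genes, was lowest in 4 of 8 lipogenic and 5 of 11 sterol genes (against 29.6% of all genes). It was highest in 6 of the 18 mevalonate and sterol enzymes (33.3%), close to the 30.1% of all genes highest there. These 6 were ACAT2 at 0.33, HSD17B7 at 0.275, LSS at 0.18, TM7SF2 at 0.13, MVD at 0.11 and HMGCS1 at 0.085. Replicate 4 was above the mean in 14 of the 18 mevalonate and sterol enzymes (77.8%, against 50.4% of all genes). In the sterol arm it was above in 10 of 11 genes, by a median of 0.05, and it held the high values of PMVK and FDPS. The shared peak of cholesterol and lipogenic enzymes was thus seen in 1 library, CDK4WT replicate 2. A single library cannot show that the genotypes differ in how these genes vary together.

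**Figure D5:**
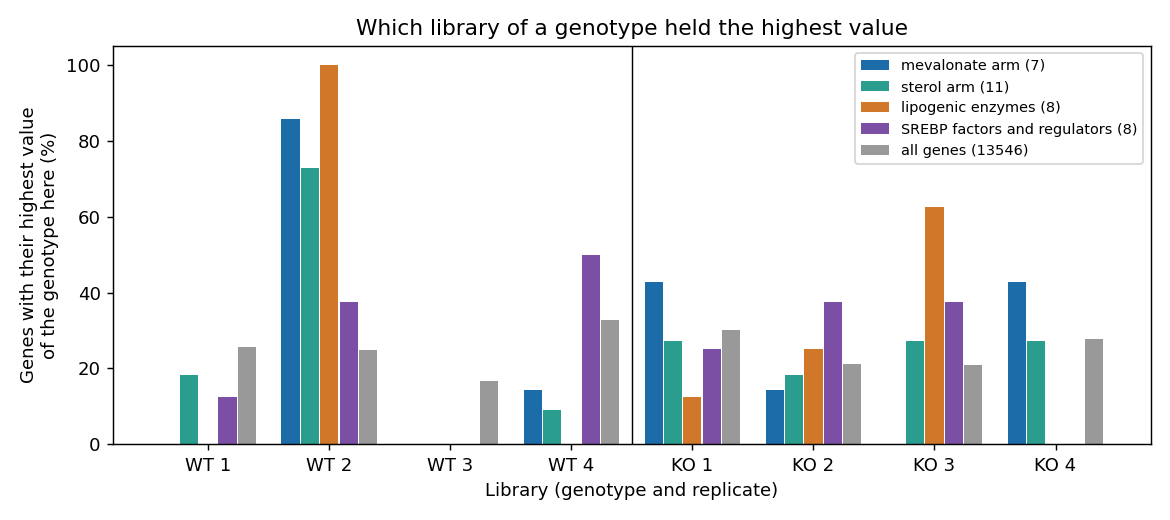
For each library, the percentage of genes of a role that had their highest value of the genotype there, with all 13546 genes in grey. In CDK4WT replicate 2 the bars reach 85.7% (mevalonate), 72.7% (sterol) and 100% (lipogenic) against 24.9% of all genes, and the bar of the regulators is at 37.5%.

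Further genes of these pathways, from lists chosen by function, were read the same way. None of the 56 measured genes of 4 lists passed edgeR's test over all genes, and 7 of the 56 passed at an unadjusted p of 0.05, against 13.0% of all genes. DESeq2 called 2 of the 56, RABGGTB as lower and ELOVL1 as higher in CDK4KO, against 2.33% of all genes, and limma voom called 1, RABGGTB, against 2.37%. In the list of sterol sensing, degradation and transport, 10 of 16 differences were negative, with a median of -0.04. NPC2, which moves cholesterol out of lysosomes, had -0.28 ± 0.10 and LBR, a nuclear envelope sterol reductase, -0.28 ± 0.12, with overlapping ranges. ERLIN2, which takes part in sterol-dependent protein degradation, had -0.14 ± 0.07. In the LXR and sterol efflux list 9 of 10 genes were measured, with a median of 0.02. PLTP, the phospholipid transfer protein, had 0.32 ± 0.13, and the exporters ABCG1 and ABCA1 had -0.33 ± 0.25 and -0.26 ± 0.20. Genotype ranges overlapped for every measured gene of these last 2 lists.

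In the non-sterol isoprenoid branch, which uses farnesyl diphosphate for protein prenylation, dolichol and ubiquinone, 5 of 12 differences were positive, with a median of -0.01. RABGGTB, a subunit of the transferase that prenylates RAB proteins, had 104, 108, 117 and 121 CPM in CDK4WT and 98.3, 94.5, 89.4 and 84.3 CPM in CDK4KO. Its ranges did not overlap, and its difference was -0.295 ± 0.07 (adjusted p = 0.129 with edgeR, 0.0112 with DESeq2, 0.0322 with limma voom). GGPS1, the geranylgeranyl diphosphate synthase, had 5.99 to 7.17 CPM in CDK4WT and 7.37 to 9.53 CPM in CDK4KO (0.315 ± 0.11, adjusted p = 0.274), also without overlap. Ranges were thus separated for 1 of 12 genes with CDK4KO higher, against 3.87% of all genes, and for 1 with CDK4KO lower, against 3.81%. ICMT, which methylates prenylated proteins, had 0.15 ± 0.09.

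Among further fatty acid and glycerolipid enzymes 13 of 19 measured genes had positive differences, against 51.2% of all genes, with a median of 0.05. ELOVL1, an elongase of very long chains, had 118, 118, 120 and 111 CPM in CDK4WT and 142, 129, 130 and 134 CPM in CDK4KO, without overlap (0.20 ± 0.05, adjusted p = 0.19 with edgeR, 0.0341 with DESeq2). MID1IP1, an activator of acetyl-CoA carboxylase, had 37.3 to 44.5 CPM and 44.6 to 47.6 CPM (0.18 ± 0.07), with ranges that nearly touch. These were the 2 of 19 genes with separated ranges, both with CDK4KO higher, against 3.87% of all genes. ME1, the NADPH-forming malic enzyme, had -0.25 ± 0.12 at 5.72 to 8.49 CPM, with overlap. The measured adipocyte markers overlapped between genotypes beside these lipogenic values. PLIN1, the lipid droplet coat protein of fat cells, had 1.18 to 2.58 CPM in CDK4WT and 0.72 to 1.26 CPM in CDK4KO (-0.91 ± 0.29, edgeR adjusted p = 0.233). CFD and LIPE had 0.13 ± 0.22 and -0.28 ± 0.16. Their part in the lipogenic values was not tested.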

How the data were processed

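RNA-seq libraries of 4 CDK4WT and 4 CDK4KO tumours were deposited as raw counts per Ensembl gene, one column per library. The submitters' processing notes name cutadapt, STAR 2.7.11a, featureCounts 2.0.4, DESeq2 1.46.0 and hg38; no source used here gives the annotation release, the strand setting or what was done with reads from the mouse. CDK4KO columns were matched to samples through the library names in the labels. Of 13546 genes, 13524 had a symbol, and 13455 a position in GENCODE 29.

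From these counts, edgeR 4.0.16 (R 4.3.3; TMM scaling, filterByExpr, which removed 0 genes, robust quasi-likelihood F test) was fitted over all genes, with Benjamini-Hochberg adjustment and a threshold of 0.05. CPM values are TMM-scaled, log2 CPM used a prior count of 2, and the common biological coefficient of variation was 11.7%. Errors of log2 fold changes are SE and those of CPM are SD. DESeq2 1.42.0 and limma 3.58.1 (voom with quality weights) were alternatives, beside other scalings and filters and leaving out each library. The fit was tested on simulated counts. Libraries of 1 genotype differed well beyond sampling noise, so none was counted as a duplicate; where they do not come from separate animals, the p-values reflect sample-to-sample spread only, which may be technical.

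Members and lists were chosen with earlier results of these data known. The text names all members and, of each further list, the 3 genes with the smallest p; MYLIP, in the closing section, was chosen after its values were seen. Promoters came from RefSeq (GRCh38.p14).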

Additional observations from a re-analysis of the deposited data

Results flagged for a closer look

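In 5 of 68 groups of 4 libraries, 1 library lay far from the other 3, a rate to set beside the about 1 in 20 groups that chance gives. HMGCS1 had 159.3 CPM in CDK4WT replicate 2 and 128 to 130 in the other CDK4WT libraries. FASN had 389.0 CPM in the same library and 324 to 335 in the others. SREBF1 had 133.7 CPM in CDK4WT replicate 4 and 102.2 to 104.7 in the others. IDI1 had 92.5 CPM in CDK4KO replicate 2 and 84.5 to 85.8 in the others, and STARD4 had 96.7 CPM there and 89.7 to 90.7 in the others.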

How the results depend on the processing

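Among 18 alternatives, 20 of the 34 genes kept their direction in all and 14 turned in at least 1, in 39 of 612 single values. SC5D ranged from 0.303 to 0.414 and INSIG2 from -0.513 to -0.363. With each library left out in turn, genes called ranged from 0 to 183 (8 with all libraries; 183 without CDK4KO replicate 1, 17 without CDK4KO replicate 4 and 0 or 1 without any other), members called from 0 to 2, and the mevalonate median from -0.020 to 0.113. In the same refits the genes that turned ranged from -0.155 to 0.118 (ACAT2), -0.032 to 0.164 (PMVK), -0.011 to 0.130 (MVD), -0.054 to 0.072 (IDI1), -0.093 to 0.084 (FDPS), -0.028 to 0.169 (TM7SF2), -0.189 to 0.006 (HSD17B7), -0.002 to 0.101 (DHCR7), -0.081 to 0.056 (SREBF1), -0.003 to 0.109 (STARD4), -0.011 to 0.020 (MBTPS1), -0.044 to 0.063 (MBTPS2), -0.053 to 0.087 (ELOVL6) and -0.036 to 0.072 (FADS1). Library size alone called 14 genes (7 higher, against 6 of 8 with TMM), a minimum of 100 counts in 4 libraries 20, DESeq2 315 and limma voom 321; members called were 2 with DESeq2 and 2 with limma voom. Voom turned IDI1 to 0.015, FDPS to -0.027, SREBF1 to 0.052 and FADS1 to -0.021, and upper quartile scaling turned MBTPS1 to -0.001. Without CDK4KO libraries 1 and 4, chosen after seeing the data, 447 genes and 2 members were called, and PMVK turned to -0.007, MVD to -0.001, IDI1 to 0.026, FDPS to -0.028, TM7SF2 to -0.034 and SREBF1 to 0.016. The cause was not tested. With 4 libraries a genotype, a gene whose interval includes 0 may still differ by any amount inside it.

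Same-numbered libraries correlated at -0.0313, -0.0142, 0.00348 and 0.194 in their deviations, and only replicate 4 of CDK4WT correlated best with its own number, so the numbers were not taken as pairs. With the replicate number as a block, 13 genes and 0 members were called, and IDI1 turned to 0.001.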

Other observations

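Most LXR and sterol efflux genes were low in CDK4WT replicate 2, the library where most sterol enzymes were high. LXRs are sterol-activated receptors whose targets export cholesterol. Of the 9 measured genes, 1 was above its CDK4WT mean in that library and 6 had their lowest CDK4WT value there, with a median deviation of -0.18 on the log2 scale, against 24.7% of all genes lowest there. ABCA1, the cholesterol exporter, had 21.6 CPM there and 22.6, 29.8 and 36.1 CPM in CDK4WT replicates 1, 3 and 4. MYLIP, a ligase that removes lipoprotein receptors, had 14.4 CPM there and 15.8, 20.2 and 25.4 CPM in those 3. In CDK4KO the lowest values of both were in replicate 4, at 17.7 CPM for ABCA1 and 9.66 CPM for MYLIP.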
